A study of Mus musculus with 12 samples.

Results

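Hk2, Aldoc, Pdk1, Ppp1r3c and Pygl encode proteins that handle glucose and glycogen. They were followed in cultured mouse aortic endothelial cells labelled as null for the ETS transcription factors Ets1, Ets2 or both. Every probe set whose platform annotation named only 1 of these 5 genes was taken, which gave 8 of the 20523 probe sets analysed (5 of 11015 genes). Hk2, Aldoc and Pygl had 1 probe set each, Ppp1r3c had 2 and Pdk1 had 3. The genes were chosen by their measured differences between these same groups, so their levels and differences are given below as a description with no test.

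Total RNA from 4-week-old mice was read on Affymetrix arrays, with 3 columns of values for each of 4 groups. The group labelled DKO had null Ets1 alleles and floxed Ets2 (Ets1-/-; Ets2 fl/fl) and received a lentivirus coding for eGFP and the Cre recombinase, which deletes floxed DNA. The group labelled Ets2KO received the same Cre virus with Ets1 intact (Ets1+/+; Ets2 fl/fl). The group labelled Ets1KO (Ets1-/-; Ets2 fl/fl) and the wild type (WT, Ets1+/+; Ets2+/+) received an eGFP lentivirus without Cre. Every group therefore carried an eGFP lentivirus, Cre cannot be told apart from loss of Ets2, and the floxed Ets2 alleles of the Ets1KO group were absent in WT. The titles call the samples biological replicates, and nothing else says that they came from separate animals, so p-values measure only the spread between these arrays. For Ets1KO and Ets2KO the short sample descriptions name the deleted gene as wild type, against the titles and genotypes, which set the groups here.

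Of the DKO columns, the third matched the average of its companions in 20521 of 20523 probe sets (tolerance 1.00e-05) and was left out, so DKO has 2 arrays and each other group 3. Array medians were 8.29 and 8.30 on the log2 scale in the arrays labelled DKO, against 9.05 to 9.15 in the 9 others. Differences are therefore given relative to array medians (the median of all probe sets of an array subtracted) unless marked as deposited, and the deposited value is added where it differs in sign or overlap or much in size. All 4 Ets1 probe sets lay below every WT array in Ets1KO, by -1.36, -1.27, -0.55 and -0.75 (limma adjusted p = 0.193, 0.202, 0.543 and 0.478). In DKO they disagreed. The brightest read 10.02 and 10.29 in the arrays labelled DKO, against 10.26, 9.84 and 10.06 in WT. The difference was 0.90 (limma adjusted p = 0.0235), or 0.10 as deposited. Another read 6.49 and 7.05 in DKO, against 8.69, 8.78 and 8.83 in WT, a difference of -1.20 (adjusted p = 0.0075), or -2.00 as deposited. The other 2 differed by 0.78 and 0.18 (limma adjusted p = 0.0394 and 0.668), or by -0.02 and -0.61 as deposited. Relative to array medians, Ets1 probe sets thus passed in both directions. Which of them read the deleted part of the gene is unknown here. The brighter Ets2 probe set differed by -0.42 between Ets2KO and WT (adjusted p = 0.554), and it read 11.02 and 9.63 in DKO, against 9.72, 10.01 and 10.70 in WT. Groups are named below as they are labelled. All 3 arrays labelled Ets2KO and WT replicate 1 were male-like by Xist and Eif2s3y, and the others female-like. Of 14 endothelial markers listed, 4 were analysed (Kdr, Flt1, Eng and Egfl7), and their mean relative to array medians was -1.34 to -0.80 in DKO, -0.87 to -0.30 in Ets2KO, -1.49 to -1.05 in Ets1KO and -1.28 to -0.41 in WT. Pecam1 and Cdh5 were not analysed here.

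Endothelial cells are known to draw much of their energy from glycolysis, and their growth into new vessels depends on it. Glucose enters through the transporter Slc2a1 and is trapped as glucose 6-phosphate by hexokinases, of which Hk2 is an inducible isoform. Aldolases, among them Aldoc, later split fructose 1,6-bisphosphate. Pdk1 encodes a kinase that switches off pyruvate dehydrogenase and so keeps pyruvate out of the mitochondrial citric acid cycle. Ppp1r3c (protein targeting to glycogen) brings protein phosphatase to glycogen and favours its synthesis, and Pygl, the liver form of glycogen phosphorylase, breaks glycogen down. Several of these genes are known targets of the hypoxia-inducible factors, which bind DNA at a core written ACGTG or GCGTG.

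The sequences just before the start of transcription are shown for Hk2, Pdk1 and Ppp1r3c, the members whose levels stood apart in the arrays labelled Ets2KO, to show where that core lies. They are the 250 bases before the annotated start, from RefSeq on build GRCm38.p6, written 5′ to 3′ on the strand of the gene. Capitals mark ACGTG or GCGTG on either strand (CACGT and CACGC when read on the opposite strand), and overlapping matches run together. The Hk2 window is chr6:82774455-82774704 on the minus strand. The window of the upstream Pdk1 start is chr2:71872974-71873223 on the plus strand. The Ppp1r3c window is chr19:36736605-36736854 on the minus strand.
Hk2: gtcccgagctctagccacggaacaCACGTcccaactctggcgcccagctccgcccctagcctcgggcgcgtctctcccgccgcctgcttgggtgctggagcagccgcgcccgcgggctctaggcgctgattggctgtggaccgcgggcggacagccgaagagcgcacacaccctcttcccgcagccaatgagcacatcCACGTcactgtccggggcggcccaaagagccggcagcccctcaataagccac
Pdk1: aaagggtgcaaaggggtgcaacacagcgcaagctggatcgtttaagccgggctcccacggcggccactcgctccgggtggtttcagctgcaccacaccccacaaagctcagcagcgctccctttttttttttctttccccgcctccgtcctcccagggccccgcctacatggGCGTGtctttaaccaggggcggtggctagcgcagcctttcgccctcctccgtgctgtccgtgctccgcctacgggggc
Ppp1r3c: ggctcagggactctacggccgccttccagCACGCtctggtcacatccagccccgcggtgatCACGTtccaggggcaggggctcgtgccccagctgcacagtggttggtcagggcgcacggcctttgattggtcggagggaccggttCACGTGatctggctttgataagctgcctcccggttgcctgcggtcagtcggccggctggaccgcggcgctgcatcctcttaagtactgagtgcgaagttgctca

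The Hk2 window held the core at 2 places, beginning 226 and 52 bases before the start. The Pdk1 window held it at 1 place, 78 bases before the start, and the window of a downstream Pdk1 start held none. Ppp1r3c had 4 matches, of which a pair share the letters CACGTG and are the same stretch read on each strand. Each of the windows of the 2 annotated Aldoc starts held 1, and the Pygl window held 2. Among all 32851 windows of the same length, 38.6% held at least 1 match and 16.7% held 2 or more. The letters CCGGAA, a core bound by ETS factors, occurred in 1 Aldoc window and in no other member window, against 12% of all windows. A match is a description of letters and not evidence of binding.

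Relative to array medians, 5 of 8 probe sets (Hk2, Aldoc and others given below) lay above every WT array in both DKO arrays and none lay below. In that comparison 56.4% of all probe sets were non-overlapping, in either direction, so the share of the members lies near the background and is not a result about them. In Ets2KO against WT, 2 probe sets lay above and 3 below (28.3% of all probe sets non-overlapping). In Ets1KO against WT all 8 overlapped (18.7% of all). In DKO against Ets1KO, 7 lay above and 1 below (62.5% of all), and in DKO against Ets2KO, 6 lay above and 1 below (58.4% of all). The median difference of the 8 was 2.23 in DKO against WT, where that of all probe sets was 0.16. In Ets2KO against WT it was -1.75, where that of all was 0.01. As deposited, DKO against WT had 3 above and 1 below, with a median of 1.43 against -0.63 for all probe sets. The choice of the members used these comparisons, so the counts are read no further. The comparisons with WT share the WT arrays.

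**Figure D1:**
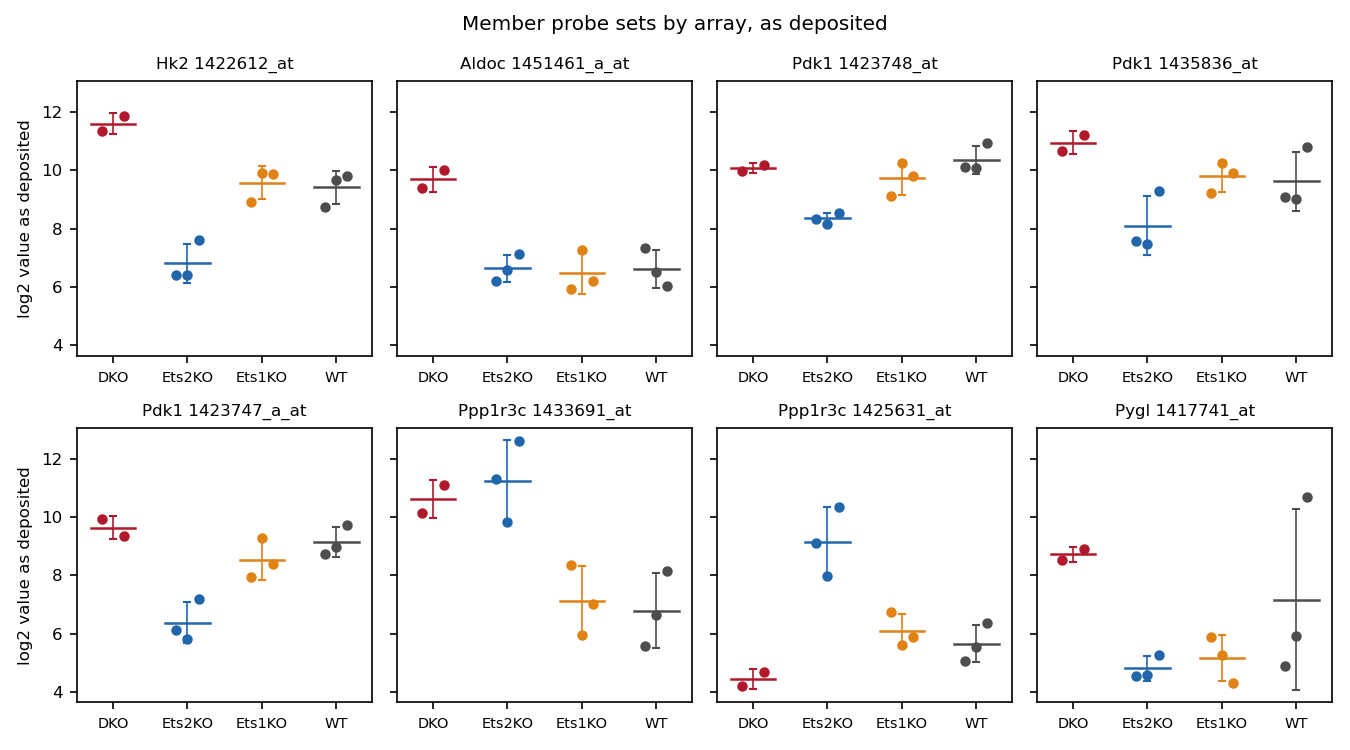
Log2 value as deposited of each of the 8 probe sets (panels) in every array, by group, with points for arrays, long bars for group means and whiskers for 1 SD (2 DKO arrays, 3 in each other group). Hk2 is highest in DKO and lowest in Ets2KO with no overlap, Aldoc is high in DKO only, and the panels of Ppp1r3c differ in DKO.

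Hk2, which commits glucose to the cell, was 11.35 and 11.86 in the arrays labelled DKO. It was 6.40, 6.42 and 7.60 in Ets2KO, 8.92, 9.92 and 9.88 in Ets1KO and 8.76, 9.66 and 9.82 in WT (probe set 1422612_at, log2 as deposited). Every DKO array was above, and every Ets2KO array below, all arrays of Ets1KO and WT, which overlapped each other. Group means were 11.61 ± 0.36 in DKO (SD, n = 2), 6.81 ± 0.69 in Ets2KO, 9.57 ± 0.57 in Ets1KO and 9.41 ± 0.57 in WT (SD, n = 3 each). The difference of DKO from WT was 2.99 relative to array medians (SE 0.46, 95% interval 1.94 to 4.03), and 2.19 as deposited. The difference of Ets2KO from WT was -2.59 (SE 0.41, 95% interval -3.52 to -1.65). Thus the groups labelled Ets2KO and DKO, which both received Cre, lay on opposite sides of WT. Ets1KO differed from WT by 0.11, with a 95% interval of -0.83 to 1.05. DKO exceeded Ets2KO by 5.57 and Ets1KO by 2.88 (SE 0.46 each), or by 4.80 and 2.03 as deposited. Against the single male-like WT array, Ets2KO differed by -1.98 and stayed below it. Among the female-like arrays DKO exceeded WT by 2.68. No DKO array was male-like and no Ets2KO array female-like, so for every gene the difference between DKO and Ets2KO cannot be told apart from sex.

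The rank of a probe set within its array does not move with the array median, and is used here only to set arrays against each other. Hk2 stood at percentiles 92.1 and 94.7 in DKO, 3.13, 2.91 and 20.4 in Ets2KO, 45.4, 66.5 and 65.7 in Ets1KO and 44.1, 61.8 and 64.3 in WT. The order of the groups was the same as by level. Aldoc ranked at 70.2 and 78.9 in DKO and at no more than 16.3 in any of the 9 other arrays.

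**Figure D2:**
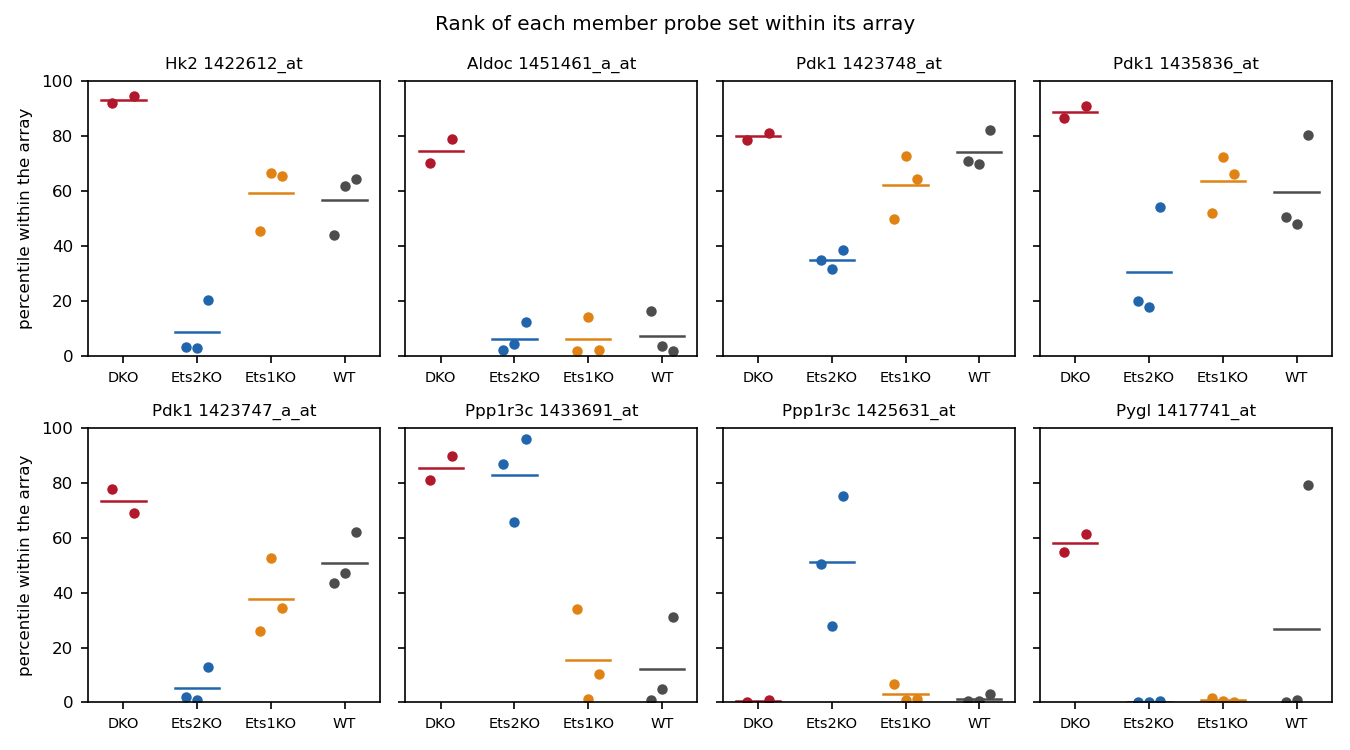
Percentile of each member probe set among all 20523 probe sets of its array, by group (points are arrays, bars group means). Hk2 ranks at 92.1 or higher in DKO and at 20.4 or lower in Ets2KO, and Pygl ranks at 79.2 in WT replicate 3 but at 1.04 or lower in the other WT arrays.

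Aldoc, the brain-type aldolase, was high in DKO alone. It read 9.40 and 10.00 in the arrays labelled DKO, 6.22, 6.59 and 7.13 in Ets2KO, 5.93, 7.27 and 6.21 in Ets1KO and 7.32, 6.51 and 6.03 in WT (1451461_a_at). The 3 groups other than DKO overlapped, with means of 6.65 ± 0.46 in Ets2KO, 6.47 ± 0.71 in Ets1KO and 6.62 ± 0.66 in WT (SD, n = 3 each), and DKO averaged 9.70 ± 0.43 (SD, n = 2). The difference of DKO from WT was 3.88 (SE 0.49, 95% interval 2.77 to 4.99), and 3.08 as deposited. That of Ets2KO from WT was 0.05, with an interval of -0.95 to 1.04. Against the single male-like WT array it was -0.70, with every Ets2KO array below that array. Aldoc therefore differed from Hk2 in Ets2KO, where Hk2 was low and Aldoc lay among the WT arrays.

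Pdk1, the brake on pyruvate dehydrogenase, was low in Ets2KO by all 3 of its probe sets. Probe set 1423748_at, the brightest, read 9.97 and 10.20 in the arrays labelled DKO, 8.35, 8.17 and 8.54 in Ets2KO, 9.13, 10.26 and 9.82 in Ets1KO and 10.11, 10.08 and 10.93 in WT. As deposited, Ets2KO stood apart from the others by this probe set, and the DKO, Ets1KO and WT arrays overlapped. Its difference in Ets2KO from WT was -2.00 (SE 0.30, 95% interval -2.68 to -1.31), 3.99 times lower in Ets2KO. Probe set 1423747_a_at gave -2.74 (SE 0.44, 95% interval -3.73 to -1.75), from 6.11, 5.83 and 7.18 in Ets2KO against 8.72, 8.97 and 9.72 in WT. Probe set 1435836_at gave -1.50 (SE 0.59, 95% interval -2.83 to -0.17), from 7.57, 7.48 and 9.28 in Ets2KO against 9.08, 9.01 and 10.79 in WT. The groups overlapped by this last probe set because Ets2KO replicate 3 exceeded the lower WT arrays, and without WT replicate 3 its difference was -0.93.

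In DKO the Pdk1 probe sets gave different sizes, and the sign of the brightest depended on the scale. Relative to array medians, 1435836_at exceeded WT by 2.11 (SE 0.66, 95% interval 0.62 to 3.60) and 1423747_a_at by 1.29 (SE 0.49, 95% interval 0.18 to 2.39). The brightest differed by 0.51 (SE 0.34, 95% interval -0.26 to 1.27). As deposited the 3 differences were 1.32, 0.49 and -0.29, and DKO and WT overlapped by all of them. Against Ets2KO, DKO was higher by every probe set on both scales, by 3.61, 4.03 and 2.50 relative to array medians and by 2.84, 3.26 and 1.73 as deposited. Ets1KO differed from WT by 0.12, -0.66 and -0.68, with overlapping arrays.

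**Figure D3:**
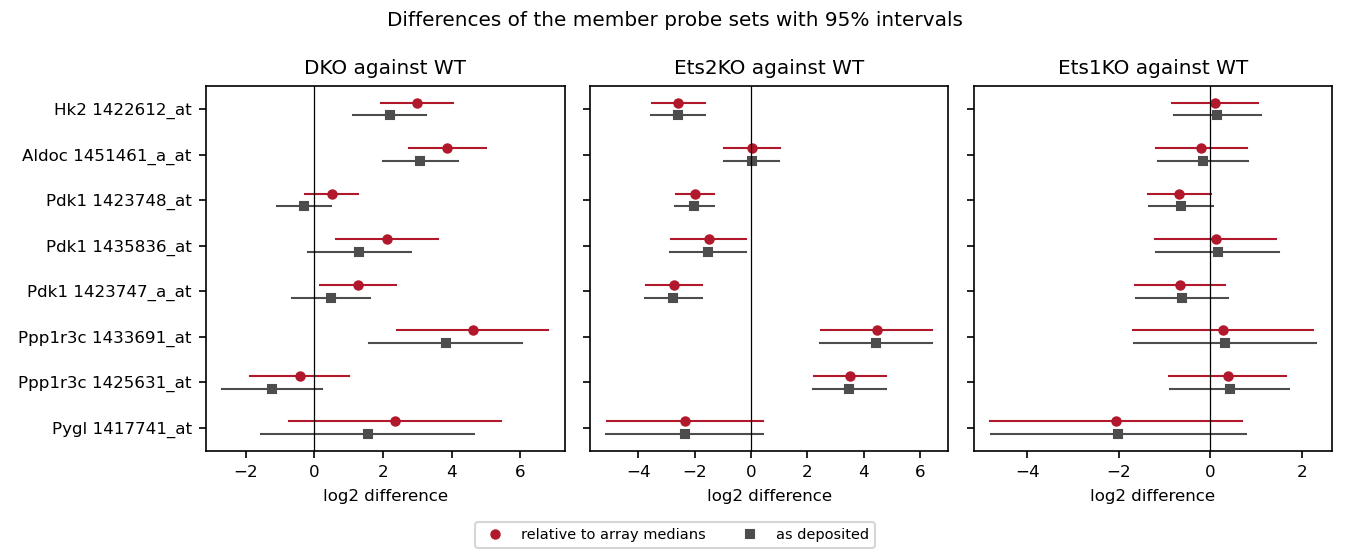
Differences from WT on the log2 scale of each member probe set in DKO, Ets2KO and Ets1KO (panels), relative to array medians (circles) and as deposited (squares), with 95% intervals from limma as lines. In DKO the circles lie to the right of the squares for each probe set, and in Ets1KO every interval covers 0.

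Ppp1r3c, which promotes glycogen storage, was high in Ets2KO by both of its probe sets, and the probe sets parted in DKO. By 1433691_at it read 10.14 and 11.08 in the arrays labelled DKO, 11.29, 9.81 and 12.60 in Ets2KO, 8.36, 5.96 and 7.02 in Ets1KO and 5.58, 6.62 and 8.16 in WT. DKO and Ets2KO overlapped each other and lay above all Ets1KO and WT arrays. The difference from WT was 4.62 in DKO (SE 0.97, 95% interval 2.42 to 6.81) and 4.47 in Ets2KO (SE 0.87, 95% interval 2.50 to 6.43), and that of DKO was 3.82 as deposited. DKO minus Ets2KO was 0.15, with an interval of -2.05 to 2.35, and as deposited its sign turned, at -0.62. By 1425631_at it read 4.19 and 4.68 in DKO, 9.09, 7.99 and 10.36 in Ets2KO, 6.75, 5.61 and 5.89 in Ets1KO and 5.07, 5.54 and 6.34 in WT. Here Ets2KO was again above every other array, by 3.51 over WT (SE 0.57, 95% interval 2.23 to 4.80), but DKO was not. DKO minus WT was -0.42 relative to array medians (95% interval -1.86 to 1.01, arrays overlapping) and -1.22 as deposited, where both DKO arrays lay below all WT arrays. Against Ets2KO, the DKO difference was -3.94 relative to array medians (SE 0.64) and -4.71 as deposited, with no overlap on either scale. By rank 1425631_at stood at percentiles 0.14 and 0.80 in DKO and 0.34, 0.54 and 2.95 in WT. In Ets1KO it stood at 6.71, 0.78 and 1.29, so these groups lay near the bottom of their arrays. Against the single male-like WT array, Ets2KO differed by 5.62 by 1433691_at and by 4.05 by 1425631_at.

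The distance between the Ppp1r3c probe sets within an array, 1433691_at minus 1425631_at, does not change when an array is shifted by a constant. It was 5.95 and 6.40 in DKO, 2.20, 1.83 and 2.24 in Ets2KO, 1.61, 0.35 and 1.12 in Ets1KO and 0.51, 1.08 and 1.82 in WT. It was thus wider in both DKO arrays than in any other array. Its change in DKO against WT was 5.04, where the median absolute change over the 4785 genes with several probe sets was 0.63. In Ets2KO against WT it changed by 0.95, where the median was 0.16. Distances over all these genes thus also changed more in DKO than in Ets2KO. Ppp1r3c was chosen by its differences between these groups, so these values are a description. The distance in DKO also rests on 1425631_at, which ranked at percentiles 0.14 and 0.80 there. The sources used here do not say which exons each probe set reads, and the direction of Ppp1r3c in DKO rests on the choice of probe set.

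**Figure D4:**
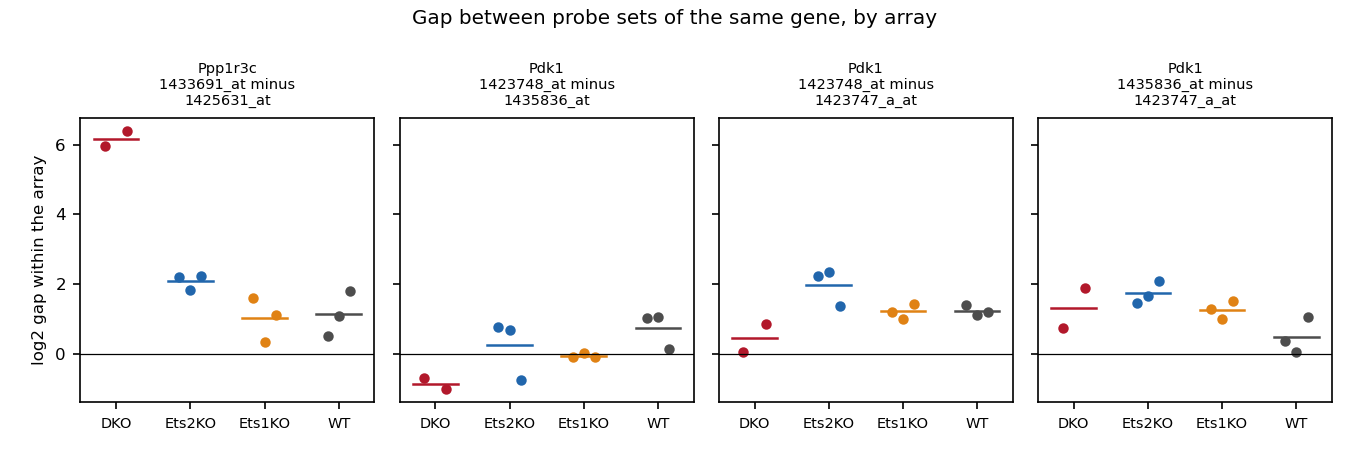
Distance on the log2 scale between probe sets of the same gene within each array, by group (points are arrays, bars group means), for Ppp1r3c and the 3 pairs of Pdk1 probe sets. The Ppp1r3c distance is 5.95 and 6.40 in DKO and no more than 2.24 in any other array.

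Adipocyte and pericyte markers are given beside Ppp1r3c. Of 8 adipocyte markers listed, 4 were analysed (Adipoq, Fabp4, Retn and Pparg), and their mean relative to array medians was -0.42 and -2.00 in DKO, 0.54, 2.26 and 2.70 in Ets2KO, -2.81 to -2.53 in Ets1KO and -1.11, -2.02 and 1.64 in WT. The DKO arrays thus lay within the range of WT. None of the 4 passed the limma test in Ets2KO against WT, and 1 passed in DKO against WT. Of 6 pericyte markers 4 were analysed, with means of 0.63 and 0.25 in DKO, 1.48, 0.33 and 2.34 in Ets2KO and -0.68 to 0.50 in WT, and none passed in Ets2KO against WT. Adipoq, the adipocyte hormone adiponectin, stood at -1.92, 3.11 and 4.14 in Ets2KO and at -5.07, -5.10 and 1.78 in WT. Ets2KO replicate 3 and WT replicate 3 were the highest of their groups in Adipoq and also in Ppp1r3c (12.60 and 8.16 by 1433691_at), while Ets2KO replicate 1 was lower in Adipoq and higher in Ppp1r3c than replicate 2. The part of these markers in the level of Ppp1r3c was not tested. In bulk RNA, fewer cells of a type and less RNA per cell cannot be told apart.

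Pygl, which degrades glycogen, read 8.54 and 8.89 in the arrays labelled DKO. It read 4.54, 4.59 and 5.28 in Ets2KO, 5.89, 5.27 and 4.31 in Ets1KO and 4.88, 5.92 and 10.69 in WT (1417741_at). By rank Pygl stood at percentiles 0.12, 0.11 and 0.67 in Ets2KO and 1.68, 0.47 and 0.11 in Ets1KO. In WT replicates 1 and 2 its percentiles were 0.23 and 1.04. The Pygl differences and its interaction given below thus rest on values near the bottom of these arrays. DKO was above all Ets2KO and Ets1KO arrays, by 4.69 and 4.40 relative to array medians (SE 1.37 each), and by 3.91 and 3.56 as deposited. WT replicate 3 was the highest of all arrays, so DKO and WT overlapped, with means of 8.71 ± 0.25 in DKO (SD, n = 2) and 7.16 ± 3.10 in WT (SD, n = 3). The difference of DKO from WT was 2.35 with a 95% interval of -0.74 to 5.43, and it was 4.10 without WT replicate 3 and 1.23 without WT replicate 1. Ets2KO minus WT was -2.34, and -0.59 without WT replicate 3. Against the single male-like WT array it was -0.10, with overlap. Ets1KO minus WT was -2.06, with -0.30 without WT replicate 3 and -3.18 without WT replicate 1. WT replicate 3 was also the WT array with high adipocyte markers, given above, and their part in its Pygl level was not tested.

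The interaction, DKO minus Ets1KO less Ets2KO minus WT, was 5.46 for Hk2 (SE 0.62), and 4.64 as deposited. It was 4.03 for Aldoc (SE 0.66, and 3.21 as deposited) and 6.74 for Pygl (SE 1.84, 5.92 as deposited, and 4.99 without WT replicate 3). For Pdk1 it was 3.18, 3.49 and 4.69 by probe sets 1423748_at, 1435836_at and 1423747_a_at, and 2.36, 2.67 and 3.87 as deposited. The Ppp1r3c probe sets gave -0.12 (SE 1.31) by 1433691_at and -4.32 (SE 0.85) by 1425631_at, and -0.94 and -5.14 as deposited. Of the 8 probe sets 6 were thus higher in DKO than the sum of the single effects, 1 was lower, and 1 was close to the sum with a wide error. All 3 Pdk1 probe sets are among the 6. The median interaction of all genes was 0.25, and -0.57 as deposited. The share of all probe sets was not computed, and the members were chosen with these groups in view, so the count is not a result about them.

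Hk2 and Pdk1 varied together also among arrays of the same group. After the group means were subtracted, Pearson's r of Hk2 with the 3 Pdk1 probe sets was 0.70, 0.82 and 0.74 over 11 arrays, and over uncentred values it was 0.90 to 0.94. The Ppp1r3c probe sets followed each other within groups (r = 0.96) and less so over all arrays (r = 0.60). Aldoc followed Hk2 weakly within groups (r = 0.22). These arrays share their scaling and groups, and the correlations are descriptions. Among 5507 genes of above-median level, the most similar profiles to Hk2 over the 11 arrays were those of Tpi1, the glycolytic triosephosphate isomerase (r = 0.984), Agpat5 (r = 0.978) and Nampt, which makes a precursor of NAD (r = 0.978). For Aldoc they were Atp11b, Gpbp1 and Cnot7 (r = 0.983, 0.974 and 0.973), and for Pdk1 Pcbp2, Mrps2 and Hnrnpa1 (r = 0.965, 0.958 and 0.947). For Ppp1r3c they were Rab40c, Sesn3 and Etfrf1 (r = 0.968, 0.949 and 0.947), and for Pygl Ccdc6, Scaf8 and BC003965 (r = 0.935, 0.929 and 0.928).

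The other genes of the same pathways were tested with limma, each by its brightest probe set, with p-values adjusted over all probe sets. Of 94 listed genes 70 were present in the values analysed and the others were not analysed here, and a gene was called at adjusted p below 0.05. In DKO against WT 22 of the 70 were called higher (31.4%) and 5 lower (7.14%), where 20.7% of all genes were called higher and 11% lower. This split belongs to the scale relative to array medians, since as deposited 6 were higher and 25 lower. The median of the 70 as deposited was -0.50, where that of all genes was -0.61. Shares of all genes called as deposited were not computed, so counts as deposited are read no further here or below. Of the 27 calls relative to array medians, 16 had further probe sets, and in 11 all had the same sign. Fibroblast markers (7 of 8 listed were analysed) had a mean relative to array medians of 2.37 and 1.68 in DKO, against 1.08 to 1.55 in WT. None of the 7 passed the test in that comparison. Leukocyte markers (5 of 9 listed were analysed) had a mean of -1.62 and -1.37 in DKO, against -1.91 to -1.36 in WT, and 2 of the 5 passed. The part of these markers in the counts was not tested.

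Glycolysis stood above the median gene in DKO on both scales. Of its 22 genes analysed 9 were called higher (40.9%) and 3 lower (13.6%) against WT, where 20.7% and 11% of all genes were. The list's median difference was 0.79, where that of all genes was 0.18. As deposited 3 were called higher and 4 lower, and the medians were -0.00079 and -0.61. Slc2a1, the glucose transporter, read 12.40 and 12.49 in DKO against 11.24, 11.11 and 11.99 in WT. It rose by 1.80 in DKO against WT (SE 0.31, adjusted p = 0.00276), and its other probe sets gave 2.02 and 1.15. Pfkfb2, which makes an activator of phosphofructokinase, rose by 1.65 (adjusted p = 0.00361), and its other probe set gave 0.40. As deposited Slc2a1 and Pfkfb2 also passed (adjusted p = 0.0279 and 0.0467). Eno2, an enolase, differed by 2.35 (adjusted p = 0.0418), but by 1.56 as deposited (adjusted p = 0.13), and it did not pass without most single arrays (adjusted p up to 0.243 over the alternatives). Pfkp, a phosphofructokinase, rose by 2.88 by its brightest probe set (adjusted p = 0.000155), but its other probe sets gave -4.16 and 1.72, so its direction depends on the probe set.

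Of 16 glycogen genes analysed, 7 were called higher in DKO against WT (43.75%) and none lower relative to array medians. Of all genes 20.7% were called higher and 11% lower. As deposited 1 of the 16 was called higher and 5 lower. Gbe1, which puts the branches on glycogen, read 9.82 and 11.26 in DKO, against 8.39, 7.86 and 8.89 in WT. It rose by 2.96 (SE 0.41, adjusted p = 0.00101), and by 2.16 as deposited (adjusted p = 0.00224). Pgm1, which interconverts glucose 1-phosphate and glucose 6-phosphate, rose by 1.61 (adjusted p = 0.019), and its other probe set gave 1.89. Phkb, a subunit of phosphorylase kinase, rose by 1.25 (adjusted p = 0.0134). Gys1, the muscle-type glycogen synthase, rose by 1.37 (adjusted p = 0.00501), with -1.69 by its other probe set. As deposited Pgm1, Phkb and Gys1 did not pass (adjusted p = 0.152, 0.268 and 0.118), nor did Pgm1 without WT replicate 2 or DKO replicate 2, or Phkb without DKO replicate 1. The list's median was 0.55 where all genes had 0.18, and as deposited it was -0.25 where all genes had -0.61.

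For the remaining lists in DKO against WT, the background is again 20.7% of all genes called higher and 11% lower. Medians were 0.11 in pyruvate entry, -0.26 in pentose phosphate, 0.15 in gluconeogenesis and 0.20 in oxygen sensing, where all genes had 0.18. In pyruvate entry 2 of 12 analysed genes were called higher (16.7%) and none lower. They were Pdk4, another pyruvate dehydrogenase kinase (2.87, adjusted p = 0.0179), and Pdpr, a regulator of the opposing phosphatase (1.19, adjusted p = 0.00959). As deposited neither passed (adjusted p = 0.0521 and 0.263), nor did Pdk4 without DKO replicate 1. On that deposited scale 5 of the 12 were called lower and none higher. Of 7 pentose phosphate genes, Pgls, the lactonase of that pathway, was called lower (fell by 1.46 on the log2 scale, adjusted p = 0.000282). That list had 6 called lower and none higher as deposited. Of 4 gluconeogenesis genes Fbp2 was called higher by 0.49 (adjusted p = 0.0185), but as deposited its difference was -0.30, and it did not pass without WT replicate 2 or without 1 of the DKO arrays, whichever it was. The gluconeogenesis list had 1 called lower and none higher as deposited. Of 9 oxygen-sensing genes 3 were called higher and 1 lower, against 2 higher and 4 lower as deposited. Egln3 and Egln1, prolyl hydroxylases that mark hypoxia-inducible factors for destruction, rose by 3.30 and 2.84 (adjusted p = 0.000871 and 0.000253), and their other probe sets gave 3.41 and 2.10. Vhl, the ubiquitin ligase component that recognises that mark, rose by 1.42 (adjusted p = 0.00236), with -1.90 by its other probe set, and did not pass as deposited (adjusted p = 0.065). Egln2 fell by 0.92 (adjusted p = 0.00626), and did not pass without DKO replicate 2 (adjusted p = 0.0523).

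**Figure D5:**
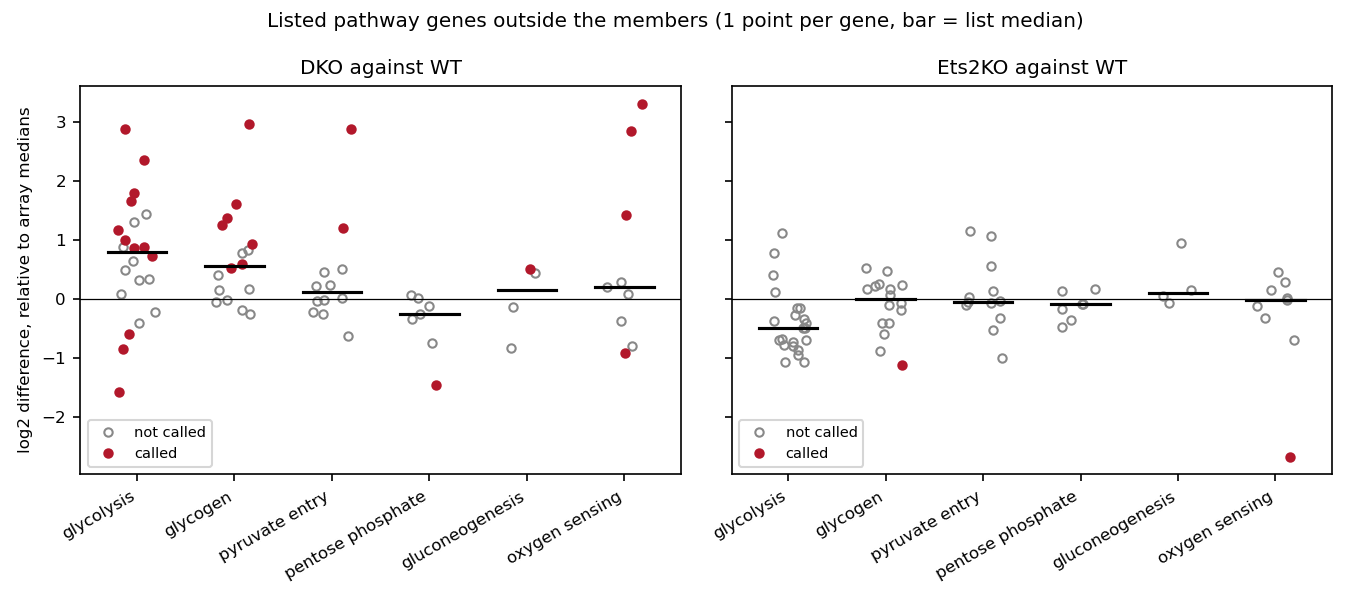
Log2 differences relative to array medians of 70 pathway genes outside the 5 members, 1 point per gene by list, in DKO against WT and in Ets2KO against WT (filled points are called at adjusted p below 0.05, bars are list medians). In DKO 22 genes are called higher and 5 lower, and in Ets2KO the 2 called genes are both lower.

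In Ets2KO against WT 2 of the 70 genes were called, both lower, where 0.3% of all genes were called higher and 0.245% lower. Egln3 read 6.51, 7.31 and 6.87 in Ets2KO against 9.03, 9.93 and 9.84 in WT, and fell by 2.68 (SE 0.40, adjusted p = 0.0347), with -2.46 by its other probe set. Pgm2, a phosphoglucomutase, fell by 1.12 (SE 0.18, adjusted p = 0.0391). Both calls are near the threshold, and without WT replicate 1, WT replicate 2, Ets1KO replicate 3 or any 1 Ets2KO array neither was made. Among glycolysis genes 18 of 22 lay below 0 with a median of -0.50, where that of all genes was 0.00, but none was called and 10 had an unadjusted p below 0.05. The largest differences among them, in Pfkfb2 (1.11, adjusted p = 0.084) and Slc2a1 (-1.08, adjusted p = 0.0921), did not pass. Slc2a1 read 10.16, 10.44 and 10.45 in Ets2KO, all below the WT arrays given above. By sex-like markers Ets2KO could be compared with 1 WT array only, and with sex as a covariate no pathway gene was called.

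In Ets1KO against WT none of the 70 genes was called by limma, 7 had an unadjusted p below 0.05, and with array weights 1 was called. Of all genes 0% were called higher and 0.00908% lower. The glycolysis genes Eno3 and Eno2 differed most within their list (1.76, adjusted p = 0.461, and 1.35, adjusted p = 0.591). Among glycogen genes Gbe1 differed by -0.86 (adjusted p = 0.544).

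Against Ets1KO, DKO had 23 pathway genes called higher and 5 lower, where 22.4% of all genes were called higher and 10.3% lower. As deposited the split was 7 higher and 23 lower. Gbe1 and Slc2a1 rose by 3.81 and 2.34 (adjusted p = 0.000279 and 0.000833), and Pgls fell by 1.72 on the log2 scale (adjusted p = 0.000117). Bpgm, which makes 2,3-bisphosphoglycerate, differed by -1.86 (adjusted p = 0.0209), but its other probe sets gave 0.08 and -0.76, and it did not pass without 1 of the DKO arrays, whichever it was. Against Ets2KO, DKO had 27 called higher and 4 lower, where 20.6% of all genes were called higher and 12.3% lower. As deposited 14 were higher and 25 lower. Of 22 glycolysis genes 13 were higher and 2 lower (8 and 4 as deposited), with a median of 1.33 where all genes had 0.20. Egln3 rose by 5.98 (adjusted p = 4.72e-05) and Slc2a1 by 2.87 (adjusted p = 0.000291).

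The interaction was called higher in 24 of the 70 genes and lower in 2, where 10.6% of all genes were called higher and 6.85% lower. As deposited the split was 12 higher and 19 lower. Of 22 glycolysis genes 11 were called higher and none lower, against 6 higher and 4 lower as deposited. The list's median was 1.30, where that of all genes was 0.25, and as deposited it was 0.48, where that of all genes was -0.57. Slc2a1 had an interaction of 3.42 (SE 0.42, adjusted p = 0.00122) and Pgk1, phosphoglycerate kinase, one of 1.91 (SE 0.26, adjusted p = 0.00171). Pgk1 read 14.35 and 14.33 in DKO, 13.41, 13.31 and 13.00 in Ets2KO, 13.86, 14.39 and 14.22 in Ets1KO and 14.01, 14.10 and 14.32 in WT, so as deposited the Ets2KO arrays lay below all others, which spanned 13.86 to 14.39. Egln3, like Hk2, was highest in DKO and lowest in Ets2KO, with Ets1KO and WT overlapping in between. It read 12.19 and 12.02 in DKO, 6.51 to 7.31 in Ets2KO, 8.70 to 10.29 in Ets1KO and 9.03 to 9.93 in WT.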

How the data were processed

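The values are log2 expression per probe set as deposited. Per the submitters' processing notes the authors used RMA, whose version and settings are not given in the sources used here. Probe sets were named from the platform annotation: 18824 carry 1 symbol, 549 several and 1150 none listed. Values relative to array medians entered 1 fit of 4 group means (limma 3.58.1 under R 4.3.3, lmFit and eBayes, 11 arrays, 7 residual degrees of freedom), with Benjamini-Hochberg adjustment over 20523 probe sets in each comparison. A gene stands for its brightest probe set. Whether the table was filtered before deposit is not known, so shares, percentiles and medians of all refer to the 20523 probe sets analysed. The number of arrays limits the precision. The fit was tested on simulated data. Leaving out the third DKO column followed from its values.

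The members, the pathway and marker lists and the tests were chosen with earlier results of these data known. Named pathway genes are, per list and comparison, up to 4 called genes with the largest difference, or up to 2 where none was called, and not all are printed. Genes of similar profile are the 3 highest Pearson r with a member's brightest probe set. Alternatives were the values as deposited, quantile normalization, other treatments of probe sets, all 12 columns, sex, array weights, the groups compared alone, a replicate block and leaving out each array.

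Figures were drawn with matplotlib 3.10.9 in Python 3.11.15.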

Additional observations from a re-analysis of the deposited data

Results flagged for a closer look

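Relative to array medians, for 4 member probe sets every Ets2KO array moved away from the WT arrays in 1 direction and every DKO array moved away from the Ets1KO arrays in the other. The difference between these effects was 5.46 for Hk2 and, for Pdk1, 3.18 by 1423748_at and 4.69 by 1423747_a_at. As deposited DKO and Ets1KO overlapped by 1423748_at, with a difference of 0.34. For Ppp1r3c by 1425631_at it was -4.32, where Ets2KO was above WT and DKO below Ets1KO. There DKO minus Ets1KO was only -0.80, with a 95% interval of -2.24 to 0.63. Both groups lay near the bottom of their arrays, at percentiles 0.14 and 0.80 in DKO and 6.71, 0.78 and 1.29 in Ets1KO. The difference was not tested for these probe sets, since the genes were chosen by it. Of all probe sets, 28.3% did not overlap in Ets2KO against WT and 62.5% in DKO against Ets1KO, in either direction. The share of all probe sets that moved in opposite directions was not computed, so the count of 4 is read no further.

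Of the 70 pathway genes outside the members, the interaction was called higher by limma in 24 and lower in 2. As deposited the split was 12 higher and 19 lower. The 16 genes given here are, per list, up to 4 called genes with the largest interaction, so their number follows from that rule. In glycolysis it was 3.42 for Slc2a1, 3.11 for Pfkp (with -4.22 by another of its probe sets), 2.52 for Pfkfb3 and 1.91 for Pgk1. In glycogen metabolism it was 4.23 for Gbe1, 2.99 for Pgm1, 2.34 for Gys1 (with -1.22 by its other probe set) and 1.26 for Pgm2. In pyruvate entry it was 2.18 for Pdk3 and 1.05 for Dlat, in the pentose phosphate pathway -1.85 for Pgls, and in gluconeogenesis 0.61 for Fbp2. In oxygen sensing it was 6.22 for Egln3, 2.54 for Egln1, 1.75 for Vhl (with -1.98 by its other probe set) and 1.46 for Hif1a (with -1.88 and 2.00 by others). As deposited the interaction of Fbp2 was -0.21, and its call was lost in 16 alternatives, among them the removal of each single array. Pgm2, Dlat, Vhl and Hif1a also did not pass as deposited (adjusted p = 0.225, 0.506, 0.0575 and 0.0869). All other values are relative to array medians, and all rest on the 2 arrays labelled DKO.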

How the results depend on the processing

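Among the 48 member differences (8 probe sets in 5 comparisons and the interaction), the sign turned in 2 as deposited, 2 with quantile normalization, 6 with sex as a covariate, 1 with a replicate block and 19 of 528 values without 1 array. None of these had a 95% interval that excluded 0. Against the spread between arrays, 25 of 48 member values moved when values were used as deposited, 11 with sex as a covariate, 1 with a replicate block, 1 of 528 without 1 array, and none with quantile normalization or all 12 columns.

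The number of pathway genes called in Ets2KO against WT was 2 and became 9 with all 12 columns, 14 with array weights, and 0 with sex as a covariate, with a replicate block or with only the groups compared. Without 1 array it was 0 to 2. In Ets1KO against WT it was 0, also without any 1 array, and 1 with array weights. In DKO against Ets2KO it was 31, with 9 when sex was a covariate. The interaction had 26, with 17 when the probe sets of a gene were averaged and 17 with sex as a covariate, and it could not be run with only the groups compared. Without 1 array the counts were 20 to 29 in DKO against WT, 23 to 31 in DKO against Ets1KO, 26 to 33 in DKO against Ets2KO and 22 to 24 in the interaction. The other alternatives kept the total within 1.5 times, though as deposited the split by direction turned.

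Replicate numbers did not pair the arrays: in 15 pairs of arrays with the same number in different groups, deviations from group means had r of -0.306 to 0.1, and none was above 0.1. With the replicate block 25 genes were called in DKO against WT, 27 against Ets1KO, 27 against Ets2KO and 23 in the interaction, and 0 in each single knockout.

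The limits are the 2 arrays labelled DKO with lower medians, Ets1 and Ets2 probe sets that only partly follow the labels, Cre confounded with loss of Ets2, sex-like markers unequal between groups, and probe sets of 1 gene that disagree. The cause of the changes above was not tested.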
